A study of Mus musculus with 2 samples.

Results

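The genes described here are 38 mouse genes of apoptosis and cell survival, chosen by name from textbook families. Of these, 29 had at least 1 probe set that carried their symbol alone, out of 8220 genes named on the arrays, and 21 of the 29 had a signal above the background floor on at least 1 array. Bcl2a1a, Bcl2a1b, Bcl2a1d and Bnip3l had only probe sets shared with other genes, and Bax, Pmaip1, Tnfrsf10b, Ripk1 and Trp53 had none under their own name in the annotation used here. The values came from 2 Affymetrix arrays, 1 of Pac1-/- and 1 of Pac1+/+ macrophages. Pac1 is the protein of Dusp2, a nuclear phosphatase that switches MAP kinases off. The mice were age-matched littermates whose peritoneal macrophages had been drawn out with 3% thioglycollate, a sterile irritant, over 4 days, purified by adherence for 2 hours and given 100 ng/ml of lipopolysaccharide (LPS, a bacterial cell-wall component that triggers Toll-like receptor 4) for 6 hours. The macrophages were 92 to 95% positive for Mac-1 per the labels. The sources used here do not give the design of the Pac1 deletion, the ages or the number of mice behind an array. With 1 array a genotype there was no replicate, no test of the genotypes and no p-value, and genotype cannot be told apart from mouse, culture or array.

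Apoptosis runs along an intrinsic and an extrinsic route. In the intrinsic route Bax and Bak open the outer mitochondrial membrane, the Bcl2 family's survival proteins hold them in check, BH3 proteins release that check, and cytochrome c that escapes assembles Apaf1 and caspase-9 into the apoptosome. In the extrinsic route death receptors such as Fas recruit the adaptor Fadd and caspase-8, and the caspase-8 homologue c-FLIP, encoded by Cflar, blocks that step. Toll-like receptor 4 activates NF-kB, a transcription factor known to induce survival genes in macrophages, among them the Bcl2a1 genes, and MAP kinases regulate several Bcl2 family proteins, Mcl1 and Bim included.

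The Bcl2a1 genes encode A1, a short-lived survival protein of the Bcl2 family, and exist in the mouse as near-identical copies. The best-matching 100 bases within the 250 bases before each transcription start were the same in 99 of 100 positions across the 3 copies. They were picked for their likeness, so they do not measure that of the whole upstream parts. They begin 206 bases before the start in Bcl2a1a, 250 in Bcl2a1b and 200 in Bcl2a1d. The capitals below mark the position at which these stretches differ. The stretches are shown because such copies cannot be separated by the probe sets that carry their names. They are upstream DNA and not the probes' own targets. The sequences are RefSeq's, of build GRCm38.p6, 5′ to 3′ in the direction of each gene. They lie at chr9:88956714-88956813 on the plus strand for Bcl2a1a, at chr9:89199023-89199122 on the plus strand for Bcl2a1b and at chr9:88731951-88732050 on the minus strand for Bcl2a1d.
Bcl2a1a: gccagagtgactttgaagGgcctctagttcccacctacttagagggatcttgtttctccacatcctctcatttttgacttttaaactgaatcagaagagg
Bcl2a1b: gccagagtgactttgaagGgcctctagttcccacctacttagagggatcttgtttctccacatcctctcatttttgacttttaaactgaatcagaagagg
Bcl2a1d: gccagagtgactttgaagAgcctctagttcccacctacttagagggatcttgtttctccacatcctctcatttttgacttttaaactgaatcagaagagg

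An NF-kB motif, GGG followed after any 3 bases by TTCC, was searched on both strands of the 250 bases before each start and occurred in 3 of the 34 genes of the set with a promoter entry (8.82%), against 5.31% of 27025 genes in the RefSeq table. The 3 genes were Bcl2l1, Mcl1 and Casp4, all measured above the floor. Windows of 30 bases around 1 match in each are printed with the motif in capitals, which on the opposite strand reads as its reverse complement. They show where the letters stand and say nothing of binding. The windows are chr2:152830916-152830945 (minus strand, motif on the opposite strand, from 218 bases before the start) for Bcl2l1, chr3:95658683-95658712 (plus strand, motif on the opposite strand, from 28 bases before the start) for Mcl1, and chr9:5308746-5308775 (plus strand, same strand, from 93 bases before the start) for Casp4. Bcl2l1 has several starts and Casp4 more than 1, and each distance is to 1 start. Casp4 had further matches on the opposite strand.
Bcl2l1: tacgcctctcGGAAAAACCCgggagtggtc
Mcl1: ccagccctccGGAAACGCCCgcccctttcc
Casp4: atgagttacaGGGGATTTCCccacagcagt

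Signals are MAS5 intensities in arbitrary units, and each ratio is the log2 of the knockout over the wild-type signal after signals below a floor of 36.4, the median of all signals, were raised to it. A gene counts as measured when at least 1 of its signals exceeded the floor, which held for 5119 genes. Dusp2 itself read 76.8 in knockout cells and 333.0 in wild-type cells (log2 ratio -2.12, 1 probe set), and whether its probes lie in the deleted part is not given. All 15 macrophage markers on the arrays were measured, with summed signals of 72924 in knockout cells and 64486 in wild-type cells. Their median log2 ratio was 0.20 against 0.02 for all measured genes. Of them 11 had ratios above 0 and 4 below, from Msr1 at -0.67 to Fcer1g at 0.60. Markers of other cells summed to 1092 in knockout and 1171 in wild-type cells (12 neutrophil genes, 7 of them measured), 1983 in knockout and 1790 in wild-type cells (8 B cell genes, 7 measured), 171 in knockout and 158 in wild-type cells (8 T and NK cell genes, 2 measured), 953 in knockout and 924 in wild-type cells (9 eosinophil and mast cell genes, 4 measured) and 1238 in knockout and 1442 in wild-type cells (12 mesothelial and stromal genes, 8 measured). Of these markers 5 were 2-fold apart. They were 1 of the 7 measured B cell genes and 1 of the 2 T and NK cell genes. The others were 1 of 4 eosinophil and mast cell genes and 2 of 8 mesothelial and stromal genes, with 0 of 7 neutrophil genes. Of all measured genes, 1.23% were 2-fold higher and 1.07% were 2-fold lower in the knockout. Cd79a (100.2 in knockout and 20.7 in wild-type cells) and Prg2 (100.1 in knockout and 16.0 in wild-type cells) were each at least 2.75-fold higher. Cd4 was at least 2.05-fold lower, and the stromal genes Acta2 (log2 ratio -1.35) and Col4a1 (-1.29) were lower too. The other measured T and NK cell gene, Zap70, was at least 1.94-fold higher (70.6 in knockout and 25.5 in wild-type cells). Of the 8 measured mesothelial and stromal genes, 5 were lower and 3 higher in the knockout, with Dcn highest (0.37). Most of the B cell sum came from Blnk (1377 in knockout and 1124 in wild-type cells), and the list's median log2 ratio was -0.15, with Ighm at -0.90. Ms4a1 (52.2 in knockout and 87.4 in wild-type cells), Cd79b (82.8 in knockout and 91.9 in wild-type cells) and Pax5 (40.2 in knockout and 55.7 in wild-type cells) were lower too. Of the 7 measured B cell genes, 4 were lower and 3 higher in the knockout. Hdc (555.5 in knockout and 756.7 in wild-type cells) made up most of the eosinophil and mast cell sum. Of that list's 4 measured genes 3 were higher, Tpsb2 among them (192.4 in knockout and 115.9 in wild-type cells), and its median log2 ratio was 0.48. The defining markers Cd3d, Cd3e, Cd3g, Ly6g and Epx were below the floor on both arrays. The granulocyte genes S100a8 (367.3 in knockout and 385.8 in wild-type cells) and Csf3r (315.4 in knockout and 408.0 in wild-type cells) were above it. Of the 7 measured neutrophil genes, 4 were lower and 3 higher in the knockout, from Csf3r (log2 ratio -0.37) to Camp (0.47). What part such cells have in the ratios below was not tested, and fewer cells of a type and less RNA per cell cannot be told apart.

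After LPS the 21 measured survival and death genes had a median log2 ratio of 0.01 in Pac1-/- over wild-type macrophages, against 0.02 for all measured genes. None of the 21 measured genes was 2-fold apart, against 1.23% of all measured genes 2-fold higher and 1.07% 2-fold lower in the knockout. Such shares leave few or no genes for a set this small. Cflar and Fas, a blocker and a receptor of the extrinsic route, were at least 1.5-fold higher (2 of 21 genes, 9.52%, against 6.37% of all measured genes), and Birc2, an inhibitor of apoptosis protein, was at least 1.5-fold lower (1 of 21, 4.76%, against 5.72%). With the arrays scaled to the same median these shares of all measured genes came from 214 higher and 457 lower genes in place of 326 and 293, and the 2-fold ones from 43 higher and 86 lower genes in place of 63 and 55, while Cflar (0.76), Fas (0.69) and Birc2 (-0.92) stayed past 1.5-fold and no gene of the set reached 2-fold. With the floor lowered to the 25th percentile of the signals, 4 of 27 measured genes of the set were 1.5-fold higher and 4 lower. Of these 1, Birc3, was 2-fold lower. Of all 7128 genes measured at that floor, 1038 were 1.5-fold higher and 816 lower. With the floor raised to the 75th percentile (129.9), 0 of 13 were higher and 0 lower. Cflar and Fas then had no value and Birc2 kept only a bound (-0.28), so that floor cannot show whether their ratios hold. At the floor of 36.4 the shares in the set rest on 3 genes and stand near the background.

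The pro-survival and pro-death sides had medians close to each other. The 7 measured pro-survival genes had a median log2 ratio of 0.02, with 4 above and 3 below the median of all measured genes (0.02). The 10 measured pro-death genes had a median of 0.08, with 6 above and 4 below it. Survival minus death came to -0.05. Leaving out all probe sets with a letter suffix, such as _s_at or _i_at, removed Fas and Xiap and turned the difference to 0.06. The difference was 0.03 when the genes of mixed role were counted as pro-death. The 4 measured genes of mixed role, Casp4, Dffa, Pdcd4 and Pdcd6, had a median of -0.07. Scaling to the same median lowered the median of all measured genes to -0.10 and placed both sides below 0, at -0.09 for survival and -0.04 for death genes.

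**Figure D1:**
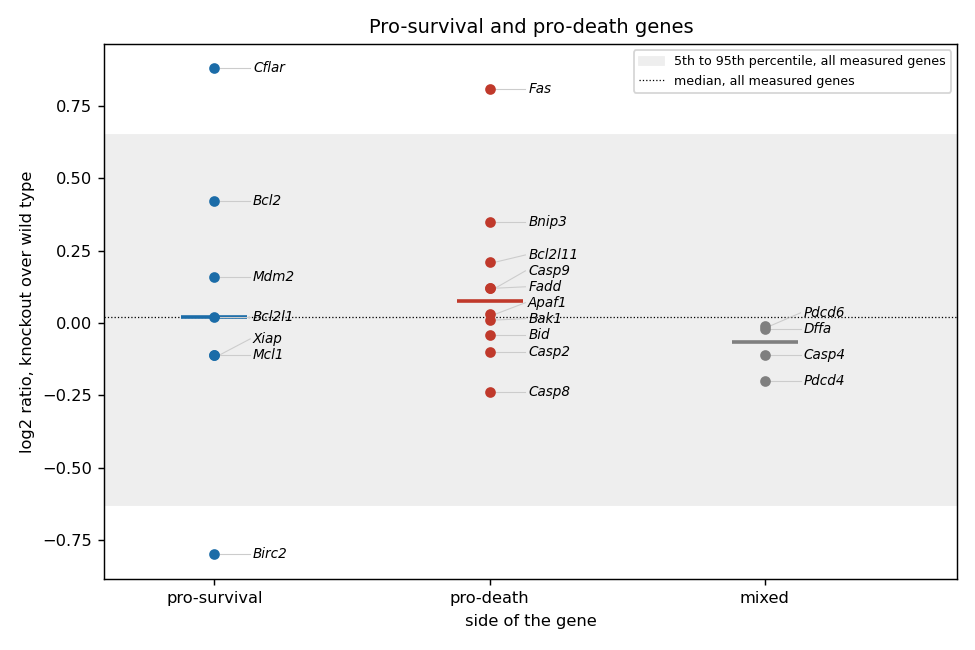
Log2 ratio of the knockout over the wild-type signal (vertical axis, 1 array each) for each measured pro-survival, pro-death and mixed gene (points), with the median of each side (thick bar). The shaded band holds the central range of all 5119 measured genes from the 5th percentile (-0.63) to the 95th (0.65); Cflar, Fas and Birc2 lie outside it and the side medians lie near its middle.

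Among the Bcl2 family's survival genes, the shared Bcl2a1 probe sets were far above the floor and nearly equal between genotypes. The probe set annotated to Bcl2a1a, Bcl2a1b, Bcl2a1d, the related Bcl2a1c and Mthfs (102914_s_at) read 5482 in knockout cells and 5252 in wild-type cells (log2 ratio 0.06). The one annotated to Bcl2a1a, Bcl2a1c and Bcl2a1d (93869_s_at) read 2558 in knockout cells and 2425 in wild-type cells (0.08), and a further one (102913_at) was below the floor on both arrays, at 8.3 in knockout and 10.2 in wild-type cells. No single copy can be given a value from them, and they entered no median. Both readings above the floor were slightly higher in the knockout, but at -0.06 and -0.04 with the arrays scaled to the same median, and lay within the difference of 0.30 on the log2 scale that typically separated the ratios of 2 probe sets of the same gene (median over 520 genes).

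Mcl1, a short-lived survival protein that binds Bak, had a signal of 1295 in knockout cells and 1402 in wild-type cells (log2 ratio -0.11). Bcl2l1, the gene of Bcl-xL, had 484.3 in knockout cells and 476.0 in wild-type cells from 1 probe set (0.02, but -0.09 with the arrays scaled to the same median), while another lay below the floor on both arrays. Bcl2, the family's founding survival gene, was ambiguous. One probe set (98870_at) read 106.2 in knockout cells and 79.2 in wild-type cells (0.42), another (98869_g_at) read 43.9 in knockout and 50.4 in wild-type cells (-0.20), and a further one (98868_at) was below the floor, at 10.2 in knockout and 21.7 in wild-type cells. With opposite signs on its 2 readings above the floor, Bcl2 had no settled direction. Bcl2l2, the gene of Bcl-w, was below the floor on both arrays, at 13.1 in knockout cells and 11.7 in wild-type cells.

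Bak1, the one measured pore-forming gene of the family, had 529.8 in knockout cells and 527.4 in wild-type cells (log2 ratio 0.01, but -0.11 with the arrays scaled to the same median). The difference between Bak1 and the survival genes that bind its protein was small as well. The ratio of Mcl1 minus that of Bak1 was -0.12, and the ratio of Bcl2l1 minus that of Bak1 was 0.02.

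Among the BH3 genes, Bcl2l11 was higher in the knockout on each of its probe sets. Bcl2l11 encodes Bim, a BH3 protein that binds all major survival proteins of the family and whose stability ERK controls. Its signal was 212.5 in knockout cells and 183.8 in wild-type cells on 1 probe set (100988_at, log2 ratio 0.21). Another read 159.0 in knockout cells and 108.5 in wild-type cells (99418_at, 0.55), and the last read 76.7 in knockout and 62.0 in wild-type cells (99419_g_at, 0.31). All 3 were higher in the knockout, also after scaling to the same median, where 100988_at stood at 0.09, but 99418_at and 99419_g_at share 1 source sequence and the sizes are within 1.5-fold. Bid, the BH3 protein that caspase-8 cleaves to link both routes, had 341.3 in knockout cells and 352.1 in wild-type cells (-0.04). Bnip3, a mitochondrial protein of hypoxia and mitophagy, had 63.1 in knockout cells and 49.5 in wild-type cells (0.35). The probe set shared by its relative Bnip3l and a Bnip3l pseudogene read 284.1 in knockout cells and 289.4 in wild-type cells (-0.03). Bad, whose protein is held inactive by phosphorylation, was below the floor on all 3 of its probe sets, which ran up to 24.1 in knockout cells and 22.4 in wild-type cells.

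**Figure D2:**
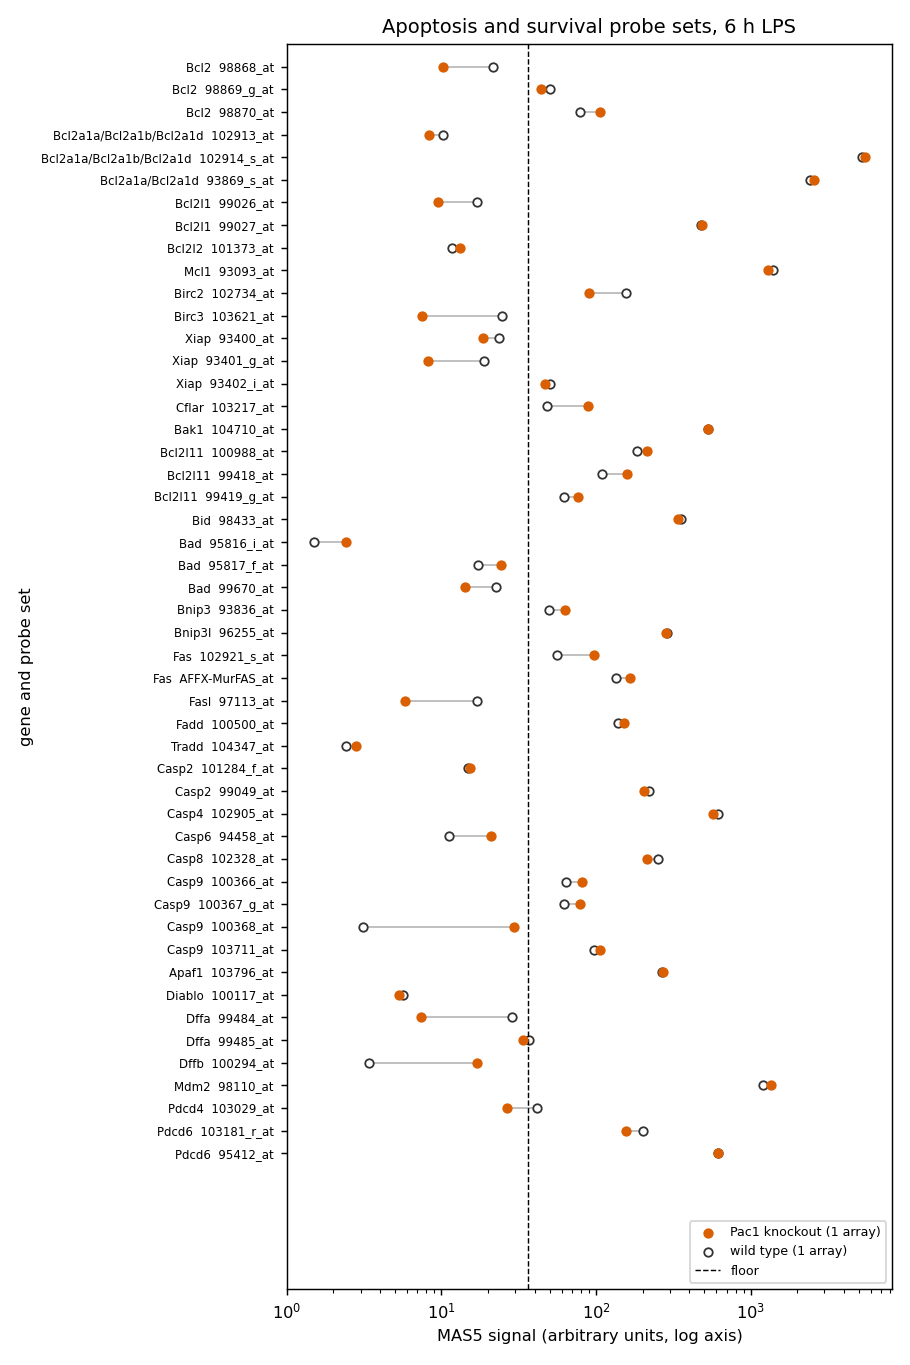
MAS5 signal in arbitrary units (log axis) of every probe set annotated to the genes, with the knockout as filled and the wild type as open circles, 1 array each, and the floor of 36.4 as a dashed line. Points are to be compared within a row only: the 3 Bcl2l11 rows have the knockout to the right, and most wide gaps lie left of the floor.

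Of the extrinsic route, the receptor gene Fas and the blocker gene Cflar were both higher in the knockout. Fas had 97.7 in knockout cells and 55.6 in wild-type cells (102921_s_at, log2 ratio 0.81, 1.76-fold). The array's own control probe set for mouse Fas, which stayed out of the gene values, had 165.4 in knockout cells and 135.3 in wild-type cells (0.29, 1.22-fold). The 2 readings thus had 1 direction and differed by 0.52 in size, and Fas was past 1.5-fold only on the probe set with a suffix for possible cross-hybridisation. Cflar had 88.6 in knockout cells and 48.3 in wild-type cells on its single probe set (0.88, 1.83-fold), with the wild-type signal near the floor. Its ratio was higher than those of 98.0% of all measured genes.

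Further down that route, the adaptor gene Fadd had 151.1 in knockout cells and 138.8 in wild-type cells (0.12), and Casp8, which encodes the initiator caspase of the route, had 212.5 in knockout cells and 251.8 in wild-type cells (-0.24). The ratio of Cflar minus that of Casp8 was 1.12 on the log2 scale and that of Cflar minus Fadd was 0.75. Among the 9 pairs of a survival protein and its partner looked at after the values were seen, others ran the other way, such as Mcl1 minus Bcl2l11 (-0.32), Xiap minus Casp9 (-0.23) and Bcl2l1 minus Bcl2l11 (-0.18). Fasl, the ligand of Fas, was below the floor on both arrays, at 5.8 in knockout cells and 17.0 in wild-type cells. Tradd, an adaptor of TNF receptor 1, was below it too, at 2.8 in knockout and 2.4 in wild-type cells.

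Of the inhibitor of apoptosis genes, Birc2 was lower in the knockout and Xiap was near the wild-type level. Birc2 encodes cIAP1, a ubiquitin ligase that keeps TNF receptor signalling on its survival branch. Its signal was 90.5 in knockout cells and 157.2 in wild-type cells (log2 ratio -0.80, 1.74-fold lower), lower than all but 2.6% of the measured genes' ratios, and a bound of -0.28 was left with the floor raised to the 75th percentile. It had 1 probe set, so no other reading of the gene stands beside it. Birc3, which encodes the related cIAP2, read 7.5 in knockout cells and 24.6 in wild-type cells, both below the floor, so that no fold is given. Xiap, whose protein binds and blocks caspases directly, had 46.6 in knockout cells and 50.4 in wild-type cells on 1 probe set (-0.11), and below the floor it had 18.7 in knockout and 23.5 in wild-type cells on another, and 8.2 in knockout and 18.9 in wild-type cells on the last. Of the 5 probe sets of these genes, 3 lay below the floor on both arrays, so that no direction is read from them.

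Ratios of this size were more frequent among dim genes. Cflar and Fas fall in the range from the floor to a signal of 100, in which 9.66% of 2009 genes were 1.5-fold or more higher and 7.27% were 1.5-fold or more lower. Birc2 falls between 100 and 300, in which 6.44% of 1584 genes were 1.5-fold or more lower. Of the 7 genes of the set with a brighter signal over 300, which were Bcl2l1, Mcl1, Mdm2, Bak1, Bid, Casp4 and Pdcd6, none was 1.5-fold apart. In the brightness range of 300 to 1000, 6.24% of 993 genes were 1.5-fold apart, and over 1000, 1.69% of 533 genes were.

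**Figure D3:**
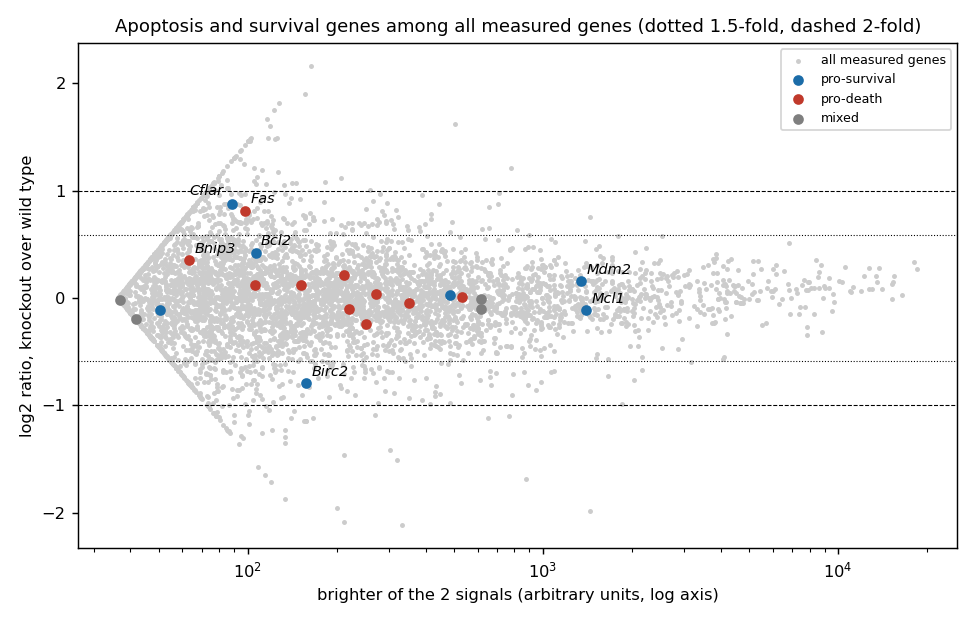
Log2 ratio of the knockout over the wild-type signal against the brighter of the signals (arbitrary units, log axis) for 5119 measured genes in grey and the survival and death genes in colour. Cflar, Fas and Birc2 are the 3 coloured points past the dotted 1.5-fold lines, in the dimmer range where grey points spread widest, and no coloured point reaches the dashed 2-fold lines.

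The measured caspases and Apaf1 were within 1.2-fold on the probe set used for each gene, except Casp8 (-0.36) with the arrays scaled to the same median. Apaf1, the scaffold of the apoptosome, had 271.9 in knockout cells and 265.4 in wild-type cells (log2 ratio 0.03, but -0.08 with the arrays scaled to the same median). Casp9, its initiator caspase, had 105.9 in knockout cells and 97.6 in wild-type cells on the probe set of highest signal (103711_at, 0.12), with 81.2 in knockout and 64.2 in wild-type cells on another (100366_at, 0.34) and 79.0 in knockout and 62.3 in wild-type cells on a related one (100367_g_at, 0.34). The value of 103711_at was just below 0 with the arrays scaled to the same median, and 100368_at was below the floor, at 29.6 in knockout and 3.1 in wild-type cells. Casp2, an initiator caspase of the stress response, had 205.5 in knockout cells and 220.4 in wild-type cells (-0.10). Casp4, the mouse caspase-11 that senses cytosolic LPS and drives pyroptosis, had 570.7 in knockout cells and 614.8 in wild-type cells (-0.11). The executioner gene Casp6 (20.9 in knockout cells, 11.2 in wild-type cells) and Diablo, whose protein relieves Xiap's block (5.3 in knockout cells, 5.6 in wild-type cells), were below the floor on both arrays.

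Mdm2, the ubiquitin ligase that removes p53 and is itself a p53 target, had 1344 in knockout cells and 1203 in wild-type cells (log2 ratio 0.16). Pdcd6, a calcium-binding protein gene first linked to T cell death, had 611.4 in knockout cells and 615.2 in wild-type cells (-0.01), and -0.36 on another probe set (103181_r_at), with 157.3 in knockout and 201.8 in wild-type cells. Pdcd4, an inhibitor of translation that LPS regulates in macrophages, was above the floor on the wild-type array alone, at 26.7 in knockout cells and 41.7 in wild-type cells, at least 1.15-fold lower (1.56-fold with the floor lowered to the 25th percentile). Dffa, the inhibitor and chaperone of the apoptotic DNase, was also above it on that array alone, at 33.8 in knockout cells and 37.0 in wild-type cells (at least 1.02-fold lower), and the DNase gene Dffb was below it on both, at 17.0 in knockout and 3.4 in wild-type cells. In none of these genes was the difference as large as 1.5-fold on the probe set and floor used.

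Counts for other genes of the pathway are to be read against the 6.37% of all measured genes that were 1.5-fold higher and the 5.72% that were 1.5-fold lower, which leaves few or no genes for lists this short. Of 9 measured relatives and partners of the Bcl2 family, 0 were 1.5-fold apart, with a median log2 ratio of 0.05, from Bcl3 at 406.2 in knockout cells and 490.5 in wild-type cells (-0.27) to Bnip1 at 263.2 in knockout and 196.6 in wild-type cells (0.42). Of 9 further caspases, inhibitors and mitochondrial factors, 0 were 1.5-fold apart, with a median of -0.03. The lowest was Parp1, a DNA repair enzyme that caspases cleave, at 59.9 in knockout cells and 76.0 in wild-type cells (-0.34), and the highest was the adaptor gene Cradd, at 49.8 in knockout and 40.4 in wild-type cells (0.30). Of 8 survival and death kinases 0 were 1.5-fold apart (median -0.05), from Pim3 at 117.5 in knockout cells and 153.7 in wild-type cells (-0.39) to Map3k5, the stress kinase ASK1, at 55.7 in knockout and 45.1 in wild-type cells (0.30).

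Genes of the TNF receptor axis had 5 of 16 above the median of all genes and a median log2 ratio of -0.07. The highest was Tnfsf10, which encodes the death ligand TRAIL, at 116.4 in knockout cells and 83.4 in wild-type cells (0.48). The lowest was Ier3, an early NF-kB target that modulates survival, at 533.4 in knockout cells and 859.7 in wild-type cells (-0.69). It was the 1 gene of the 16 past 1.5-fold, near the 5.72% of all measured genes that were 1.5-fold lower. Of 12 measured p53 targets and related genes, 0 were 1.5-fold higher and 2 were 1.5-fold lower, against 6.37% and 5.72% of all measured genes. These were Gadd45a, a growth arrest gene, at 24.8 in knockout cells and 119.4 in wild-type cells (at least 3.28-fold lower, the 1 gene of these lists 2-fold apart), and the antiproliferative gene Btg2, at 312.4 in knockout and 477.5 in wild-type cells (-0.61). The highest of that list was Zmat3, an RNA-binding protein gene, at 70.9 in knockout cells and 52.4 in wild-type cells (0.44), and the list's median was 0.01.

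**Figure D4:**
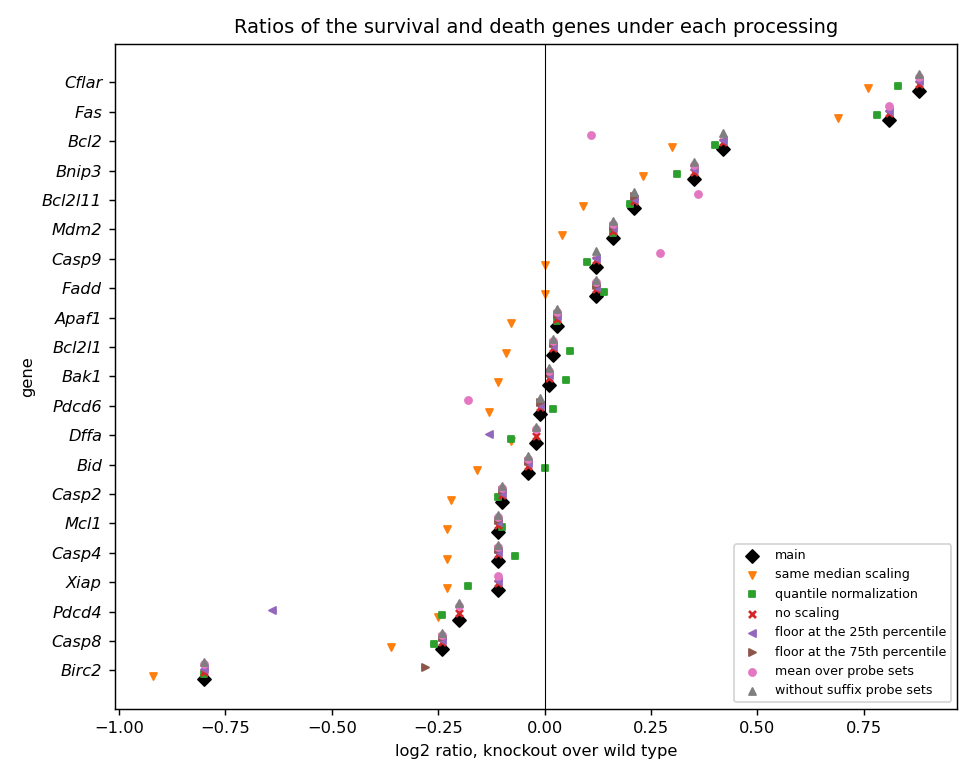
Log2 ratio of the knockout over the wild-type signal (horizontal axis) of each of the 21 measured genes under the processing used here (black diamonds) and 7 alternatives (other symbols). Cflar and Fas stay to the right of 0 and Birc2 to the left wherever they have a value, while Bcl2l1, Bak1, Casp9, Apaf1 and Pdcd6 change side with the scaling.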

How the data were processed

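The deposited values are linear intensities, 1 for each probe set of an array, made by the authors with MAS5 per the submitters' processing notes, with no version or settings given. Both columns had a 2% trimmed mean of 150.0, as after a common scaling. Of 12654 probe sets, 10298 had 1 gene symbol, 363 several and 1993 none in the platform annotation. Of the named ones, 10279 matched a RefSeq gene (GRCm38.p6), which changed 0 symbols. The 66 control probe sets stayed out of the gene values. From there, arrays were scaled to the same 2% trimmed mean, signals were raised to the median of all signals (36.4) and log2 ratios were taken with numpy 2.4.6 and pandas 2.3.3. The probe set of highest mean signal stood for a gene. Calls were sizes of 1.5-fold and 2-fold, with no test. The code was tested on simulated data. Named were all the genes of the set, Dusp2, and in each other pathway list the highest, the lowest and any 2-fold apart. Btg2 and the named cell markers were picked with their values in view. The members, lists and sides were chosen with earlier results of these data known, and the NF-kB motif and the binding pairs after values were seen. The arrays' number limits the precision. Alternatives covered scaling, floor, probe set rule and suffix probe sets.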

Additional observations from a re-analysis of the deposited data

How the results depend on the processing

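Of the 8 alternatives that give a value per gene, Cflar, Fas and Birc2 kept their direction in each in which they were measured. No paired analysis was possible because each genotype had 1 array. With the arrays scaled to the same median, median log2 ratios were -0.09 for pro-survival genes, -0.04 for pro-death genes, -0.09 for the whole set and -0.10 for all measured genes, of which 214 were 1.5-fold higher, 457 were 1.5-fold lower and 86 were 2-fold lower (43 were 2-fold higher). With the genes of mixed role counted as pro-death, survival minus death was 0.03. Without suffix probe sets it was 0.06, and 1 gene of the set was 1.5-fold higher, since Fas then had no value. With control probe sets kept, an alternative chosen after seeing the data, Fas stood at 0.29 and again 1 gene was 1.5-fold higher. With the floor lowered to the 25th percentile, 27 genes of the set were measured. Of these 4 were 1.5-fold higher (Cflar, Fas, Casp6 and Dffb), 4 were 1.5-fold lower (Birc2, Birc3, Fasl and Pdcd4) and 1 was 2-fold lower (Birc3). Of all 7128 genes measured at that floor, 1038 were 1.5-fold and 476 were 2-fold higher, and 816 were 1.5-fold and 344 were 2-fold lower. With the floor raised to the 75th percentile (129.9), 13 genes of the set were measured, 0 were 1.5-fold higher and 0 were 1.5-fold lower. Cflar and Fas had no value at that floor and Birc2 stood at a bound of -0.28. Of all 2675 genes measured at that floor, 53 were 1.5-fold and 2 were 2-fold higher, and 72 were 1.5-fold and 8 were 2-fold lower. Another floor both admits other genes and replaces other signals. Under the mean over probe sets, Bcl2 was at 0.11, Bcl2l11 at 0.36, Casp9 at 0.27 and Pdcd6 at -0.18. Signals near the floor in wild-type cells limit what Cflar and Fas can show.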
